A study of Mus musculus with 6 samples.

Results

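Cyclins, cyclin-dependent kinases (CDKs) and CDK inhibitors were compared between the spleens of mice given perfluorooctane sulfonate (PFOS), a persistent fluorinated surfactant, and those of untreated mice. A gene was taken in if its symbol began with Ccn and a letter, consisted of Cdk and digits alone, or began with Cdkn, and if the platform annotation gave it a probe set with that symbol only. This gave 56 genes with 129 probe sets, out of 18193 genes with 34945 probe sets of 1 symbol. The rule works on names, and it also took in 4 genes that are neither cyclins, CDKs nor their inhibitors (Ccnb1ip1, Ccndbp1, Cdkn2aip and Cdkn2aipnl). Ccnb1, the gene of cyclin B1, was not analysed here.

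All 6 samples were from Balb/c mice labelled female and 6 to 8 weeks old. The 3 control samples are labelled as exposed to nothing. The 3 PFOS samples came from mice given 10 mg per kg body weight each day for 3 weeks by the intragastric route. Whole spleen RNA of each sample was measured on 1 Affymetrix Mouse430_2 array. The values are log2 intensities after RMA normalization, so that a change of 1 is 2-fold. The labels call the arrays of a group biological replicates. How many mice stand behind each array was not established here. Over the tested genes, arrays of the same group correlated at 0.9985 to 0.9991 and arrays of different groups at 0.969 to 0.970. What the p-values below measure is the spread between these 3 samples a group, part of which may be technical. How far that spread holds differences between mice was not tested.

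The labels were checked against defining genes before the comparison. Of the tested markers of the spleen's own cells, the 9 of B cells averaged 9.90 to 10.39 on the 6 arrays, the 9 of T cells 8.90 to 9.40 and the 7 of red pulp macrophages 9.76 to 10.07. The 11 tested markers of hepatocytes, which are liver cells, averaged 8.88 to 8.91 on the control arrays and 5.37 to 5.44 on the PFOS arrays. The label of female sex was not borne out: on the 6 arrays the Y-linked genes Eif2s3y and Kdm5d lay at 9.62 to 9.91 and 7.54 to 7.94, and Xist, the transcript of the inactive X chromosome, lay at only 5.62 to 5.86. This held in both groups alike.

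A cyclin is the regulatory subunit that switches on its CDK, and different pairs act at different points of the cell cycle. D-type cyclins with Cdk4 or Cdk6 respond to growth signals in G1, cyclin E with Cdk2 drives entry into S phase, cyclin A acts through S phase and G2, and cyclin B with Cdk1 drives mitosis. The INK4 inhibitors bind Cdk4 and Cdk6, and the CIP/KIP inhibitors bind a wider range of cyclin-CDK pairs. A further branch of both families, with Cdk8, Cdk9, Cdk12 and their cyclins, acts mainly in transcription by RNA polymerase II. Cdk7 with cyclin H does both, since it activates other CDKs and also phosphorylates the polymerase. In the adult mouse spleen, dividing cells include red cell precursors, which mice keep in the red pulp, and activated lymphocytes.

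Cyclins E1, E2, A2 and B2 and their kinases Cdk2 and Cdk1 were lower in PFOS spleens, while the cyclins and CDKs with other roles changed in both directions, none of them by 2-fold. Of the 56 genes, 51 passed the filter on low levels, which was a mean over the 6 arrays of at least 5.62, and none of them passed through one group alone. Limma called 25 of the 51 lower (26.0% of all 13101 genes tested were called lower) and 16 higher (40.6% of all genes), at an adjusted p under 0.05 over all genes. At least 2-fold lower were 8 members (2.92% of all genes), and 0 were at least 2-fold higher (0.0687% of all genes). The PFOS arrays lay wholly outside the range of the control arrays for 42 of the 51 members, beside 71.1% of all genes. The median change of the 51 was -0.06 and that of all genes 0.05.

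Counts by role were as follows. Of 13 tested cyclins and CDKs of G1 to mitosis, 10 were lower, 1 was higher and 2 were not called, with a median change of -0.82. Of 6 tested INK4 and CIP/KIP inhibitors, 4 were lower, 1 was higher and 1 was not called (median -0.27). Of 27 tested cyclins and CDKs with other roles, 7 were lower, 13 were higher and 7 were not called, with a median of 0.07 and changes from -0.57 (Cdk16) to 0.32 (Cdk7).

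**Figure D1:**
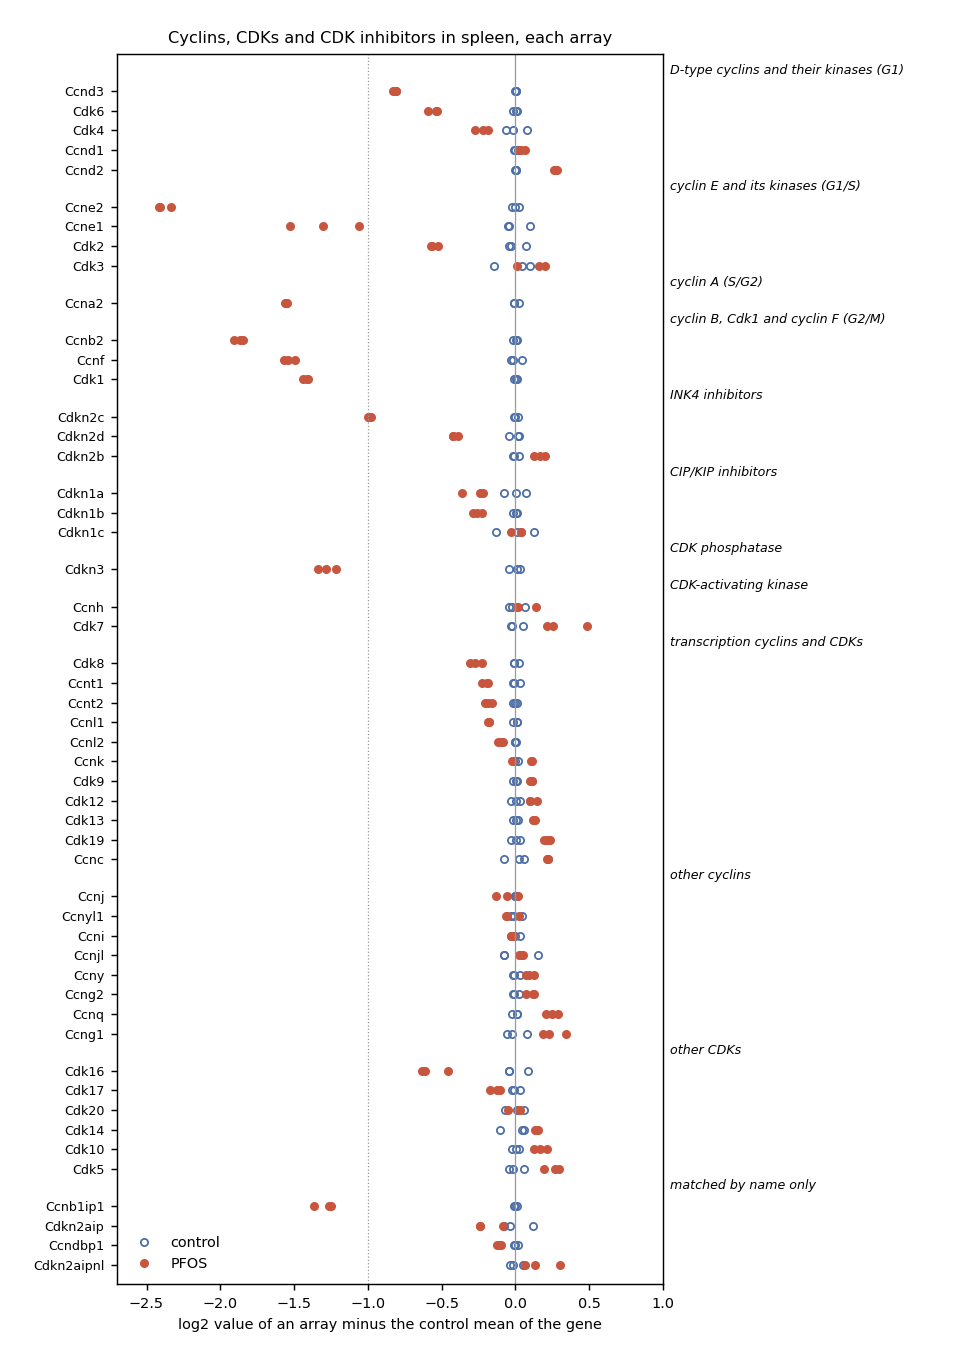
Each row is a member gene and each point an array, with 3 control arrays (open blue) and 3 PFOS arrays (red). The x axis is the log2 value minus the control mean of that gene, and the dotted line marks 2-fold lower. The PFOS points of Ccne2, Ccnb2, Ccna2, Ccnf, Cdk1, Ccne1, Ccnb1ip1 and Cdkn3 lie left of that line, and no other member has all its PFOS points left of it. Among the transcription and other groups, Cdk16 lies farthest from 0, with a change of -0.57.

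These directions depend on how the arrays are set level with each other. The 27 probe sets for bacterial labelling controls (the spikes), those for Trp among them, averaged 6.29 ± 0.0038 (SD, n = 3) on control arrays. On PFOS arrays they averaged 5.81 ± 0.025, lower by 0.48 (a change of -0.48, exact two-sided permutation p = 0.1, the smallest that 3 against 3 arrays can give). For comparison, the array medians were 6.16 to 6.18 and the floor of the filter was 5.62. Scaling the arrays on these spikes raises every change by 0.48, the median of all genes included. Then 11 members were lower and 37 higher, and 4 were at least 2-fold lower. Over all 13101 genes, 12704 were then called, and 93.8% of these calls were higher. The 11 were Ccne2, Ccnb2, Ccna2, Ccnf, Cdk1, Ccne1, Ccnb1ip1, Cdkn3, Cdkn2c, Ccnd3 and Cdk6. Of the 13 cyclins and CDKs of G1 to mitosis 8 were then lower and 4 higher, of the 6 inhibitors 1 was lower and 4 higher, and of the 27 with other roles 0 were lower and 26 higher. In what follows, "lower" and "higher" are in the RMA values, and a member whose call turns or is lost with the spikes is named as such.

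Markers of dividing cells and of red cell precursors were lower, as were 10 of the 13 cyclins and CDKs of G1 to mitosis. All 9 tested proliferation markers were called lower (median change -1.31); their mean level was 11.06 to 11.08 on the control arrays and 9.69 to 9.72 on the PFOS arrays. All 16 tested erythroid markers were lower as well (median -1.63), from a mean level of 11.09 to 11.11 down to 9.55 to 9.56. Over all genes, 26.0% were called lower. The smallest erythroid fall, that of Alas2 (-0.39), is less than the 0.48 that scaling on the spikes adds. Aurkb, a mitotic kinase, was at 7.92 in control and 6.63 in PFOS. In whole spleen, fewer cells of a type and less RNA per cell cannot be told apart, and the part of the erythroid markers in the results below was not tested.

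The largest change of any member was in cyclin E2, which with Cdk2 commits cells to DNA replication. Ccne2 read 9.46, 9.41 and 9.42 on the control arrays and 7.10, 7.02 and 7.02 on the PFOS arrays. The groups were far apart, with a change of -2.39 ± 0.031 (SE), or 5.23-fold lower (limma adjusted p = 7.15e-09), and the fall ranked 28 among the 13101 genes. Its paralog cyclin E1, Ccne1, read 10.18, 10.04 and 10.03 in control and 8.55, 9.03 and 8.78 in PFOS. This was a change of -1.30 ± 0.110 (adjusted p = 3.64e-05), and the PFOS arrays were less tight than for the other members. The probe set behind it ends in _x_at, which marks probes that can bind other transcripts. The other Ccne1 probe set was tight, at 8.99, 8.95 and 9.03 against 7.41, 7.45 and 7.36, a change of -1.58 ± 0.038.

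Cdk2, the kinase partner of cyclins E and A, was lower as well. It read 8.98, 8.88 and 8.87 in control and 8.39, 8.34 and 8.34 in PFOS, without overlap (change -0.55 ± 0.036, limma adjusted p = 9.04e-06). Scaled on the spikes, the change of Cdk2 was -0.08 and not called (adjusted p = 0.105). The related kinase Cdk3, low at 6.03 in control and 6.16 in PFOS, was not called, and its arrays overlapped.

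Cyclin A2, the main A-type cyclin of body cells, was close to 3-fold lower. Ccna2 read 11.28, 11.31 and 11.28 in control and 9.73, 9.74 and 9.74 in PFOS, a change of -1.55 ± 0.023 (2.94-fold; limma adjusted p = 1.06e-08). Its second probe set gave -1.52 ± 0.033. Cyclin A1, which is mainly a germ cell cyclin, lay under the floor in both groups, with Ccna1 at 4.71 and 4.63.

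The mitotic genes were all at least 2-fold lower. Cyclin B2, a partner of Cdk1, was lower: Ccnb2 read 9.93, 9.94 and 9.95 in control and 8.08, 8.09 and 8.04 in PFOS (change -1.87 ± 0.025, 3.66-fold, limma adjusted p = 7.81e-09). Cdk1, the kinase of mitosis, read 10.09, 10.08 and 10.07 against 8.64, 8.66 and 8.67 (change -1.42 ± 0.023, adjusted p = 1.15e-08). Every PFOS value of both genes lay far below every control value.

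Cyclin F, which does not activate a CDK but picks substrates for a ubiquitin ligase in G2, moved in the same way. Ccnf read 8.84, 8.77 and 8.78 in control and 7.26, 7.23 and 7.30 in PFOS (change -1.53 ± 0.031, limma adjusted p = 2.51e-08), and its second probe set gave -1.63 ± 0.083. Cdkn3, a phosphatase that removes the activating phosphate from CDKs, read 8.25, 8.27 and 8.19 against 7.02, 6.96 and 6.90 (change -1.28 ± 0.038, adjusted p = 1.55e-07). Cyclin B3, a cyclin of meiosis, lay under the floor in both groups, with Ccnb3 at 3.48 and 3.46.

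**Figure D2:**
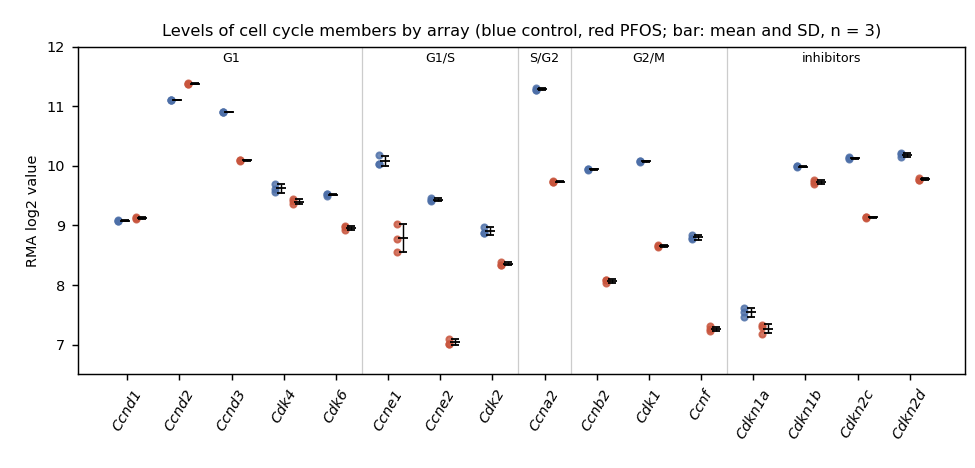
RMA log2 values (y axis) of 16 cell cycle members on each of 3 control arrays (blue) and 3 PFOS arrays (red), ordered by phase, with mean and SD beside them. From Ccne1 to Ccnf the PFOS points sit well below the control points, Ccnd2 is the one gene of the plot that is clearly above, and the wide PFOS bar of Ccne1 comes from values of 8.55 to 9.03.

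Promoters of the members that fell together are shown because the genes of G2 and mitosis are known to share a CCAAT box and a cell cycle homology region (CHR). RefSeq promoter sequences on build GRCm38.p6 were matched by symbol for 40 of the 51 tested members and for 6 of the 8 that were at least 2-fold lower; Ccne2 and Ccna2 were not matched. The window runs over the 250 bases before the annotated start. Capitals mark CCAAT, the CHR letters TTTGAA or TTCGAA, and the E2F letters TTTCCCGC, TTTGGCGC, TTTCGCGC or TTTGCCGC, on either strand. The 3 mitotic genes and Cdkn3 are printed with Ccne1, which holds none of these letters.
Ccnb2, chr9:70421555-70421804, minus strand: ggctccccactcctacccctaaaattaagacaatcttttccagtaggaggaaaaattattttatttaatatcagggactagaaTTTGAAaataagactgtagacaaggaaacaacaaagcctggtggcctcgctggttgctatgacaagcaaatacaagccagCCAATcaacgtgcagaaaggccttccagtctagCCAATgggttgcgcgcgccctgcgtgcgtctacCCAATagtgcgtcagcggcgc
Cdk1, chr10:69352913-69353162, minus strand: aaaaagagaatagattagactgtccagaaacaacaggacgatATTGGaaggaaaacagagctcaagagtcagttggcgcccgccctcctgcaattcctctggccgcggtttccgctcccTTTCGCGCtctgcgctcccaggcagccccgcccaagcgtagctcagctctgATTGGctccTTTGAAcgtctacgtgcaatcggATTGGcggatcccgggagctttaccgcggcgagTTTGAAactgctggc
Ccnf, chr17:24251410-24251659, minus strand: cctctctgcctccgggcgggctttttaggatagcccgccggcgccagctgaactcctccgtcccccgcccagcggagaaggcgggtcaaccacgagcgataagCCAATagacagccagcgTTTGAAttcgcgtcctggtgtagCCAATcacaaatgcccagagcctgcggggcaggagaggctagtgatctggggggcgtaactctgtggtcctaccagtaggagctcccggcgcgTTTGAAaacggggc
Cdkn3, chr14:46760291-46760540, plus strand: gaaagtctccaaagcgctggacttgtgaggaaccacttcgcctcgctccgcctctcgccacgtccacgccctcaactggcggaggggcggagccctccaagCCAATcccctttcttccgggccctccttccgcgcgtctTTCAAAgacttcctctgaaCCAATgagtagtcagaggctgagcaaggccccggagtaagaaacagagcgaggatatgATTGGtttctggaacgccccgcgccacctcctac
Ccne1, chr7:38107491-38107740, minus strand: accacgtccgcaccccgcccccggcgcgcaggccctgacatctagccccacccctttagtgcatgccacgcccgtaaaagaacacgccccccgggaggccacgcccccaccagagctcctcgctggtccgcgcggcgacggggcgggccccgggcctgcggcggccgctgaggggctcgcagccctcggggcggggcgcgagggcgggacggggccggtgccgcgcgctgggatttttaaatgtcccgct

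In this window Cdk1 holds 3 CCAAT boxes, 2 CHR matches and 1 E2F match, which starts 131 bases before the start. Ccnf holds 2 CCAAT boxes and 2 CHR matches, the nearer of which begins 14 bases before the start, and that of Cdk1 begins 15 bases before it. Ccnb2 holds 3 CCAAT boxes, at 87, 54 and 21 bases before the start, and 1 CHR match at 167 bases; another CHR match begins at base 5 past the start, outside the window. Cdkn3 holds 3 CCAAT boxes and 1 CHR match. CCAAT and CHR letters together were found in 4 of the 6 matched promoters of members at least 2-fold lower, in 1 of 38 promoters of the other tested members (2.63%) and in 6.02% of all 32851 promoters. Counted with or without the others, CCAAT was found in 33.8% of all promoters, CHR in 17.1% and E2F in 1.86%. The other promoter without any match was that of Ccnb1ip1. A match is a run of letters and was not tested as a binding site.

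The D-type cyclins parted from each other. Cyclin D3, the D-type cyclin of lymphoid and red cell precursors, was lower: Ccnd3 read 10.91 on each control array and 10.08, 10.10 and 10.10 in PFOS (change -0.82 ± 0.022, limma adjusted p = 9.10e-08). Cyclin D2 was higher: Ccnd2 read 11.11, 11.11 and 11.10 against 11.37, 11.37 and 11.39 (change 0.27 ± 0.022, adjusted p = 2.83e-05). Cyclin D1, which the stroma makes more than lymphocytes do, was not called, at 9.07, 9.08 and 9.10 against 9.10, 9.12 and 9.15 (change 0.04 ± 0.024, adjusted p = 0.165), although its arrays did not overlap.

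The direction of Ccnd3 and Ccnd1 depended on the probe set. A second Ccnd3 probe set was also lower (-0.52 ± 0.060), but the third was higher, at 9.43, 9.47 and 9.48 in control and 9.86, 9.88 and 9.86 in PFOS (0.41 ± 0.030). Which part of the transcript each probe set reads is not given in the sources used here. One of the 3 Ccnd1 probe sets was lower (-0.38 ± 0.038) and a further one was not called (-0.04). Of 6 Ccnd2 probe sets above the floor, 3 were higher by 0.23 to 0.27 and 3 were not called.

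The partner kinases of the D-type cyclins were lower by modest amounts. Cdk6 read 9.50, 9.52 and 9.52 in control and 8.92, 8.98 and 8.99 in PFOS (change -0.55 ± 0.026, limma adjusted p = 1.90e-06), and its other probe set above the floor gave -0.71. Cdk4 read 9.70, 9.56 and 9.61 against 9.44, 9.41 and 9.36 (change -0.23 ± 0.042, adjusted p = 0.00222); it turned to 0.25 when scaled on the spikes. Neither kinase had overlapping arrays.

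Among the inhibitors, the INK4 gene Cdkn2c had the largest change, just short of 2-fold. Cdkn2c read 10.11, 10.12 and 10.14 in control and 9.13, 9.15 and 9.13 in PFOS (change -0.99 ± 0.023, limma adjusted p = 4.11e-08). Its relative Cdkn2d read 10.15, 10.20 and 10.21 against 9.76, 9.80 and 9.77 (change -0.41 ± 0.028, adjusted p = 1.09e-05). Scaled on the spikes, the change of Cdkn2d turned to 0.07 and was not called (limma adjusted p = 0.071). Cdkn2b was higher at a low level, with 6.00, 6.04 and 6.01 against 6.14, 6.22 and 6.18 (change 0.16 ± 0.029, adjusted p = 0.00182). Cdkn2a, whose products restrain Cdk4 and stabilize p53, lay under the floor, at 4.62 in control and 4.89 in PFOS, and was called higher where all probe sets were fitted without the filter (0.27 ± 0.053, adjusted p = 0.0040).

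The CIP/KIP inhibitors did not rise in the RMA values. Cdkn1a, the inhibitor that p53 induces after DNA damage, read 7.46, 7.55 and 7.62 in control and 7.18, 7.32 and 7.30 in PFOS (change -0.27 ± 0.051, limma adjusted p = 0.00231), and its other probe set gave -0.62. Cdkn1b, the inhibitor of resting cells, read 9.97, 10.00 and 9.99 against 9.77, 9.70 and 9.73 (change -0.26 ± 0.027, adjusted p = 0.000103). On the probe sets that stand for them both turned with the spikes, Cdkn1a to 0.20 and Cdkn1b to 0.22. The fall of the other Cdkn1a probe set (-0.62) is larger than the 0.48 that this scaling adds. Cdkn1c was low and not called, at 5.94 and 5.95, with overlapping arrays.

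Log ratios of related members within an array do not depend on how arrays are scaled. For 7 pairs, chosen after the changes were seen, the value of one gene minus that of the other was compared between groups. The gene with the lower change was put first. Each had an exact two-sided permutation p of 0.1, which 3 against 3 arrays cannot go below, and 0.1 after Benjamini-Hochberg adjustment over the 7. In no pair did the groups overlap. The choice and order of the pairs set their shared direction, so it and the p-values add no separate evidence.

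The ratio of Ccnd3 over Ccnd2 went from -0.20 ± 0.01 (SD, n = 3) to -1.29 ± 0.01, a difference of -1.09. With the third Ccnd3 probe set in its place the difference was 0.14, of the opposite sign. Ccne2 over Ccne1 differed by -1.09, from -0.66 ± 0.06 to -1.74 ± 0.28, and by -0.80 with the other Ccne1 probe set. The sign of this difference was the same with either Ccne1 probe set. Cdk1 over Cdk2 differed by -0.87, Ccnd3 over Ccnd1 by -0.86, Cdkn2c over Cdkn2d by -0.58 and Cdk6 over Cdk4 by -0.33. The sign of Ccnd3 over Ccnd1 also depends on the probe set, as the third Ccnd3 probe set rose by 0.41 and Ccnd1 changed by 0.04.

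**Figure D3:**
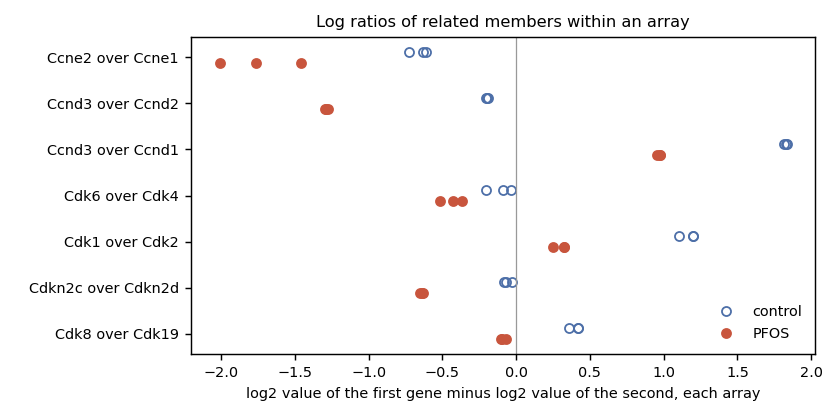
Log2 value of the first gene minus that of the second (x axis) for 7 pairs (y axis) on 3 control arrays (open blue) and 3 PFOS arrays (red). The gene with the lower change is named first, so red lies left of blue in each pair. The distance is 0.33 for Cdk6 over Cdk4 and up to 1.09 for Ccnd3 over Ccnd2 and Ccne2 over Ccne1.

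The branch that acts on RNA polymerase II changed by small amounts in both directions. Of its 11 members, 5 were lower, 5 higher and 1 not called, with changes from -0.27 to 0.22. The paralogs Cdk8 and Cdk19, alternative kinases of the Mediator complex, went apart in the RMA values. Cdk8 read 9.45, 9.45 and 9.48 in control and 9.24, 9.16 and 9.19 in PFOS (change -0.27 ± 0.029, limma adjusted p = 0.000118), and turned to 0.21 with the spikes. Cdk19 read 9.10, 9.03 and 9.07 against 9.30, 9.26 and 9.28 (change 0.21 ± 0.027, adjusted p = 0.000282). Its other probe set was higher by 0.49, so the size of its change depends on the probe set. The ratio of Cdk8 over Cdk19 went from 0.40 ± 0.03 (SD, n = 3) to -0.09 ± 0.02. Their cyclin, Ccnc, read 6.66, 6.76 and 6.80 in control and 6.96, 6.95 and 6.96 in PFOS, without overlap (change 0.22 ± 0.037, limma adjusted p = 0.00144).

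P-TEFb, the kinase that releases paused polymerase, pairs Cdk9 with cyclin T1 or T2. Cdk9 was higher by 0.11 ± 0.022, but was not called with ribosomal scaling (0.04) or with the mean over its probe sets (0.0013), and its other probe set read -0.10. Ccnt1 and Ccnt2 were lower by 0.20 and 0.18 and turned with the spikes. The other Ccnt1 probe set (-0.0050) and a further Ccnt2 probe set (0.03) were not called. The cyclins L1 and L2 work with splicing factors. Ccnl1 read 11.56, 11.59 and 11.59 in control and 11.40, 11.40 and 11.39 in PFOS (change -0.18 ± 0.022), Ccnl2 was lower by 0.10, and both turned with the spikes. Cdk13 was higher by 0.12 ± 0.023, a call lost with ribosomal scaling (0.05), and Ccnk, the cyclin that it shares with Cdk12, was not called (0.07). Cdk12 was higher by 0.12 on the probe set that stood for it, but 3 of its 4 other probe sets above the floor were lower by 0.28 to 0.29, and the mean over its probe sets was -0.09. Cdk12 therefore has no settled direction here.

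The CDK-activating kinase, which phosphorylates the other CDKs, is made of Cdk7, cyclin H and Mnat1. Cdk7 had the largest rise of all members, from 7.80, 7.88 and 7.81 to 8.31, 8.09 and 8.05 (change 0.32 ± 0.068, limma adjusted p = 0.00445). Its other 2 probe sets above the floor were not called (0.06 and -0.03). Ccnh read 9.76, 9.68 and 9.66 in control and 9.84, 9.72 and 9.71 in PFOS, with overlap, and was not called (change 0.06 ± 0.046); its 2 other probe sets were lower by 0.10 and 0.23. Mnat1 was higher by 0.15 ± 0.043.

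**Figure D4:**
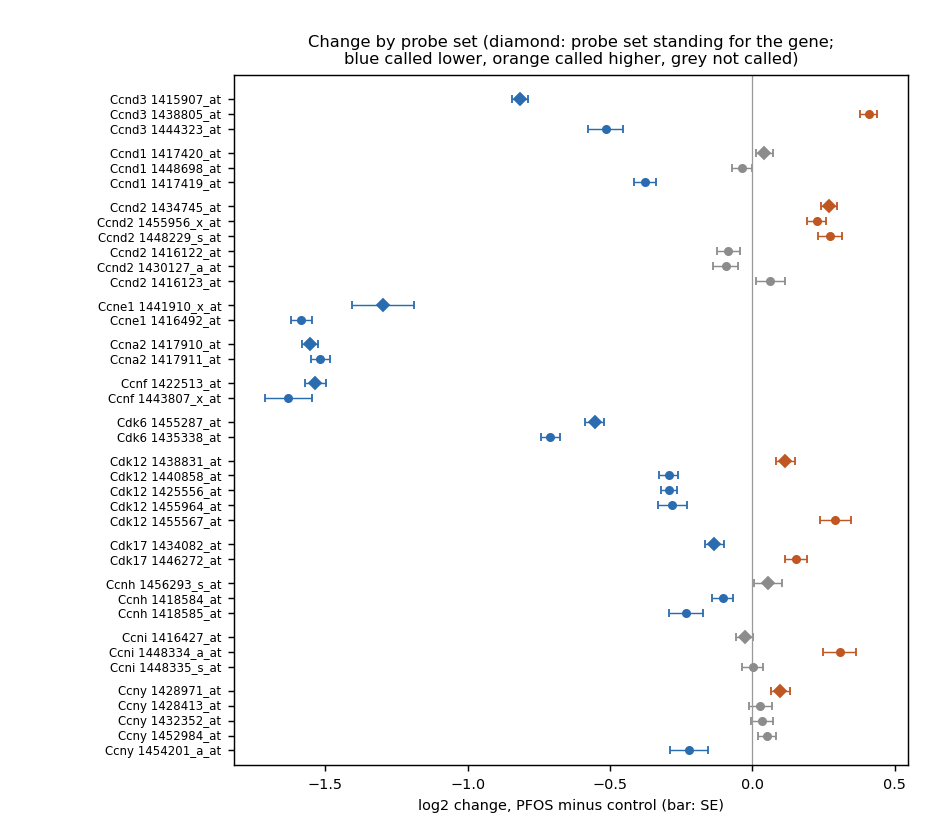
Log2 change (x axis, PFOS minus control, with SE) of each probe set above the floor for 12 members, the diamond standing for the gene. Probe sets of Ccne1, Ccna2, Ccnf and Cdk6 go the same way, while Ccnd3, Cdk12, Cdk17 and Ccny have called probe sets on both sides of 0.

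Of the 8 other cyclins tested, 4 were higher and 4 not called. Ccng1, a p53 target, read 9.83, 9.73 and 9.70 in control and 10.10, 9.98 and 9.94 in PFOS (change 0.25 ± 0.051, limma adjusted p = 0.00324). Of its other probe sets 1 was higher by 0.25 and 1 was not called (0.06), and the call of Ccng1 was lost without _s_at, _x_at and _a_at probe sets (0.06, adjusted p = 0.055). Ccnq, the cyclin of Cdk10, read 7.67, 7.71 and 7.71 against 7.90, 7.99 and 7.95 (change 0.25 ± 0.030, adjusted p = 0.00022), and Cdk10 itself was higher by 0.17 ± 0.030. In both cyclins the groups did not overlap. Ccng2, a cyclin of resting cells, was higher by 0.11 ± 0.027, but its other probe set was not called (-0.00023). The call of Ccng2 was lost with the mean over its probe sets (0.05). Ccny, which recruits Cdk14 to the plasma membrane, was higher by 0.10 ± 0.027, though another Ccny probe set was lower by 0.22. Neither Ccng2 nor Ccny was called with ribosomal scaling (0.04 and 0.03). Ccni, the cyclin with the highest level in this group, read 11.69, 11.65 and 11.63 in control and 11.62, 11.63 and 11.64 in PFOS, with overlap (-0.03), although a second Ccni probe set was higher by 0.31. Ccni, Ccnj (-0.06), Ccnjl (0.04) and Ccnyl1 (-0.03) were not called, and Ccno lay under the floor at 5.26 and 5.33.

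Among the 6 other CDKs tested, Cdk16 moved most. It read 10.71, 10.58 and 10.58 in control and 10.17, 9.98 and 10.01 in PFOS (change -0.57 ± 0.057, limma adjusted p = 8.96e-05), a second probe set was lower by 0.27, and the third above the floor was not called (-0.09). Scaled on the spikes, Cdk16 was not called (-0.09, adjusted p = 0.19). Cdk5, best known from neurons, read 7.36, 7.29 and 7.26 against 7.57, 7.49 and 7.60, without overlap (change 0.25 ± 0.039, adjusted p = 0.000873). Its other probe set above the floor was not called (0.03). Cdk14 was higher by 0.14 ± 0.045, a call lost with ribosomal scaling (0.07). Cdk17 was lower by 0.13 ± 0.029, turned with the spikes, and had another probe set that was higher by 0.15. Cdk20, which acts at the primary cilium, was not called (0.00), and Cdk18 lay under the floor at 5.32 and 5.45.

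Of the 4 genes taken in by name alone, Ccnb1ip1 was among those at least 2-fold lower. It encodes a ubiquitin ligase of meiotic recombination named for its binding to cyclin B1. It read 8.79, 8.79 and 8.80 in control and 7.55, 7.53 and 7.43 in PFOS (change -1.29 ± 0.035, limma adjusted p = 8.83e-08). Ccndbp1, which binds D-type cyclins, read 10.27, 10.25 and 10.25 against 10.15, 10.13 and 10.16, a small change without overlap (-0.11 ± 0.023, adjusted p = 0.0040). Cdkn2aip, which binds a product of Cdkn2a, was lower by 0.19, and both turned with the spikes. Cdkn2aipnl was higher by 0.17 (limma adjusted p = 0.043), a call lost with ribosomal scaling (0.10) and without the filter.

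Partners of the members were read from 5 further lists, of which 50 genes were tested, 37 were lower and 5 higher (26.0% and 40.6% of all genes), with 12 at least 2-fold lower. Scaled on the spikes, 23 were lower, 27 higher and 4 at least 2-fold lower, and 14 called changes turned. Over all genes, 93.8% of the calls were then higher. The regulators of CDK phosphorylation were lower in 5 of 6 cases. Cdc25c, Cdc25b and Cdc25a, the phosphatases that switch CDKs on, changed by -1.15 ± 0.054, -0.85 ± 0.030 and -0.59 ± 0.027. Wee1 and Pkmyt1, the kinases that hold Cdk1 off, changed by -0.36 and -0.16 and turned with the spikes.

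CDK subunits and SCF ubiquitin ligase genes were lower in 6 of 8 cases, of which Skp1 turned with the spikes. The CDK-binding protein Cks2 changed by -1.29 ± 0.025, Fbxo5, an inhibitor of the anaphase-promoting complex (APC/C), by -1.55 ± 0.026, and Btrc, a substrate receptor of SCF, by -1.38 ± 0.031. Skp2, the receptor that marks Cdkn1b for destruction, changed by -0.71. In the APC/C list, 10 of 16 were lower and 1 higher. The falls there were led by Ube2c (-1.59 ± 0.025), Bub1b (-1.25 ± 0.033) and Cdc20 (-1.24 ± 0.031), each of which was also lower with the spikes. Among subunits of the complex, Anapc5 (-0.37), Cdc27 (-0.24), Anapc1 (-0.20) and Cdc23 (-0.19) were lower and turned with the spikes, Anapc4 was higher (0.29), and Anapc2, Anapc7, Anapc10, Anapc11 and Cdc16 were not called.

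Pocket proteins and E2F factors, which gate the genes of S phase, were lower in 10 of 13 cases. Of these, Rb1, E2f3 and E2f6 turned with the spikes. E2f7 and E2f8, the repressors that cells make in S phase, changed by -1.84 ± 0.044 and -1.77 ± 0.032, and Tfdp2 by -1.35 ± 0.029. E2f1, an activator, was 2.01-fold lower. Rbl2, the pocket protein of resting cells, was higher by 0.30 ± 0.023 and Rbl1, that of cycling cells, changed by -0.61 ± 0.023. Of 7 tested MuvB and G2/M activator genes, 6 were lower, with Mybl2 at -0.98 ± 0.058, Lin54 at -0.76 ± 0.073 and Lin9 at -0.38 ± 0.040. Foxm1 changed by -0.15 ± 0.025, and it, Lin9, Lin52 and Rbbp4 turned with the spikes.

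Markers of other cell types went in both directions. Of the 9 B cell markers 8 were higher (median change 0.48), of the 9 T cell markers all 9 (0.46), and of the 5 tested germinal centre markers 3 were higher and 0 lower (0.32). Of the 7 myeloid progenitor markers, 3 were lower and 1 higher (-0.07). Plasma cell markers were higher in 6 of 7 cases (0.25) and red pulp macrophage markers in 5 of 7 (0.19), with 0 lower in both. Of the 6 megakaryocyte markers, 3 were higher and 1 lower (0.07). Beside these counts, 40.6% of all genes were called higher and 26.0% lower. The 11 tested hepatocyte markers were all at least 2-fold lower, with a mean level of 8.88 to 8.91 in control and 5.37 to 5.44 in PFOS; 7 of them had a PFOS mean under the floor. The part of these markers in the members' changes was not tested.

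**Figure D5:**
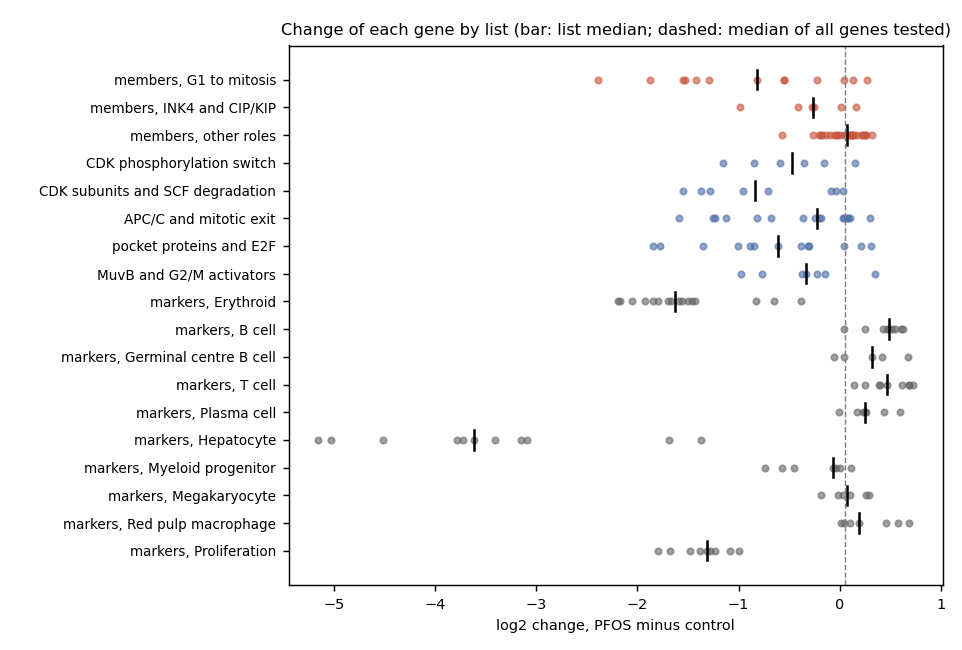
Log2 change of each tested gene (x axis) in 3 sets of members (red), 5 lists of partners (blue) and 10 marker lists (grey), with the list median as a bar and the median of all genes dashed at 0.05. Members of G1 to mitosis (median -0.82) spread from -2.39 to 0.27, and members with other roles (median 0.07) from -0.57 to 0.32.

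At the level of single probe sets, without a filter, 83 of the 129 were called in either direction, 52 lower and 31 higher, beside 50.8% of all probe sets with 1 symbol. Of the 26 members with more than 1 probe set above the floor, 4 (Ccnd3, Ccny, Cdk12 and Cdk17) had called probe sets in both directions.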

How the data were processed

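Spleen RNA of 6 samples was measured on 6 Affymetrix Mouse430_2 arrays. The deposited values are log2 intensities from RMA, per the submitters' processing notes; no RMA version or test of the authors was used. RMA sets the arrays to one distribution, so changes are relative. Of 45101 probe sets, 64 array controls, 932 with several symbols and 9160 without one were left out. Probe sets with a mean under the 40th percentile (5.62) were left out, and each gene was read from its probe set of highest mean, for 13101 genes in all. The PFOS minus control change was fitted in R 4.3.3 by limma 3.58.1 (lmFit, eBayes; two-sided). Its p-values were adjusted over the 13101 genes by Benjamini-Hochberg, and errors are limma's SE. A second fit took all probe sets without the filter, and values of probe sets that do not stand for a gene come from it. The procedure was tested on simulated data. The number of arrays limits the precision.

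Members, lists and settings were chosen with earlier results of these data known. Every tested member is named; full values are given for those at least 2-fold lower, the 6 largest called rises and the member of highest level in each role, and from partner lists up to 3 largest called changes a list. Further genes were given values after these were seen. Other settings were the replicate block, filter, scaling, variance prior, array weights, probe set choice, threshold and leaving out each array.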

Additional observations from a re-analysis of the deposited data

How the results depend on the processing

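The count of members at least 2-fold lower was 8, and that at least 2-fold higher 0, under every setting run, except that the first was 9 with ribosomal and 4 with spike scaling. Scaling on ribosomal protein genes moved the count of higher members from 16 to 9. Scaling on the labelling spikes gave 37 higher, 11 lower and 4 at least 2-fold lower; leaving out the Trp spikes, which was decided after seeing the data, the counts were 38, 10 and 4, and the spike difference itself was -0.53 rather than -0.48. Of all calls, 61.0% were higher in the RMA values, 44.2% with ribosomal scaling and 93.8% with the spikes. Scaled on the spikes, these changes turned: Ccndbp1 0.37, Ccni 0.45, Ccnj 0.42, Ccnl1 0.30, Ccnl2 0.37, Ccnt1 0.27, Ccnt2 0.29, Ccnyl1 0.45, Cdk17 0.34, Cdk4 0.25, Cdk8 0.21, Cdkn1a 0.20, Cdkn1b 0.22, Cdkn2aip 0.29 and Cdkn2d 0.066. With the mean over probe sets, Ccnd1 (-0.12), Ccnh (-0.094), Ccni (0.094), Ccny (-0.0020), Cdk12 (-0.092) and Cdk17 (0.010) turned, and Ccnh also did without _s_at, _x_at and _a_at probe sets (-0.10). Of these, Cdkn2d with the spikes, and Ccny and Cdk17 with the mean over probe sets, changed sign but were then not called. The turn by spikes is the constant added, and that by probe sets comes from members whose probe sets differ.

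Leaving out 1 array gave 24 to 25 lower and 14 to 16 higher members; Ccny, Cdk14, Cdkn2aip and Cdkn2aipnl lost their call without 1 or more arrays. The replicate numbers do not clearly pair the arrays (correlations of same-numbered deviations 0.32, 0.14 and 0.10); with a replicate block 25 members were lower and 17 higher, the added call being Cdk3. The distance of a low signal from background could not be judged, since scanner files were not used here. The counts by role and for partner genes under both scalings were added after seeing the data.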
